A study of Drosophila melanogaster with 88 samples.

Results

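Heads of 15-day-old male flies (Drosophila melanogaster) with glial knockdown of kayak (KayKD, 4 libraries) were compared with heads of the same age and sex in which wild-type kayak was overexpressed in glia (KayWT, 4 libraries). These 8 libraries were chosen by their labels, out of 88 in the whole series. Both groups carry the P58S form of the endoplasmic reticulum protein VAP, the fly counterpart of a VAPB change linked to amyotrophic lateral sclerosis, and the Repo driver, which is active in glia. Day 15 heads of the KaySCR overexpression arm (4 libraries) and of the P58S; Repo driver control (4 libraries) are set beside them as levels, and the same KayKD against KayWT contrast at day 5 (4 libraries each) is given for comparison. The driver control carries P58S too, so no group used here is without P58S. What the KaySCR construct changes is not given in the sources used here. Glia make up a part of the head, whole heads were measured, and in such bulk RNA fewer cells of a type and less RNA per cell cannot be told apart.

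kayak (kay) encodes the fly Fos protein. Fos pairs with Jun, encoded by Jra, to form the transcription factor AP-1, which acts downstream of the Jun kinase (JNK) cascade and is known for roles in stress responses, wound closure and immune gene control. In glia, JNK and AP-1 signalling is known to respond to injury and to take part in the clearing of debris. VAP tethers the endoplasmic reticulum to other organelles and is tied to lipid exchange between membranes.

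The libraries were made from the 3′ ends of mRNA, so a gene's count does not grow with its length. Levels are given as CPM, counts scaled to 1000000 reads on genes. The 8 libraries held 1.44 to 15 M reads on genes, M standing for 1000000, with a median of 6.35 M. In the shallowest, KayKD replicate 1, a gene without a read could still have stood at 2.08 CPM. In the deepest, KayWT replicate 1, the same limit was 0.2 CPM. Such limits cover counting error only. KayKD replicate 4 stood apart from the other KayKD libraries in several metabolic and photoreceptor genes, KayWT replicate 3 was high in antimicrobial peptides, and KayWT replicate 1 was high in gut and gland genes. Values without these libraries are given beside the results that rest on them.

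The targeted gene was examined in every library before any other. kay (FBgn0001297, chromosome 3R, 29765995 to 29794113, plus strand, on assembly BDGP6 as annotated by Ensembl) was at 222.5, 260.4, 223.1 and 329 CPM in KayKD heads, against 272.3, 239.8, 274.2 and 303.1 CPM in KayWT heads. The ranges overlapped, and the log2 fold change of KayKD over KayWT was -0.07 ± 0.11 (SE, adjusted p = 0.885). KaySCR heads held 255.6 to 335.1 CPM and driver heads 253.7 to 282.2 CPM, so the kay count did not set the arms apart. The count sums glia with every other cell of the head, and a transgene whose 3′ end is not that of kay would not be counted as kay, so it need not check the labels. Jra was at 41.6, 22.5, 17.5 and 23 CPM in KayKD heads and at 14.9, 22.8, 16.1 and 18 CPM in KayWT heads (log2 fold change 0.51 ± 0.32, adjusted p = 0.561). For repo, which encodes the homeodomain protein that defines glia, the levels were 21.2 to 34 CPM in KayKD heads and 21 to 30.4 CPM in KayWT heads (log2 fold change 0.12 ± 0.21, adjusted p = 0.890). Vap33, the gene of fly VAP, stood at 667.5 to 864 CPM in KayKD heads and 676.3 to 777.7 CPM in KayWT heads (log2 fold change 0.03 ± 0.09, adjusted p = 0.937).

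**Figure D1:**
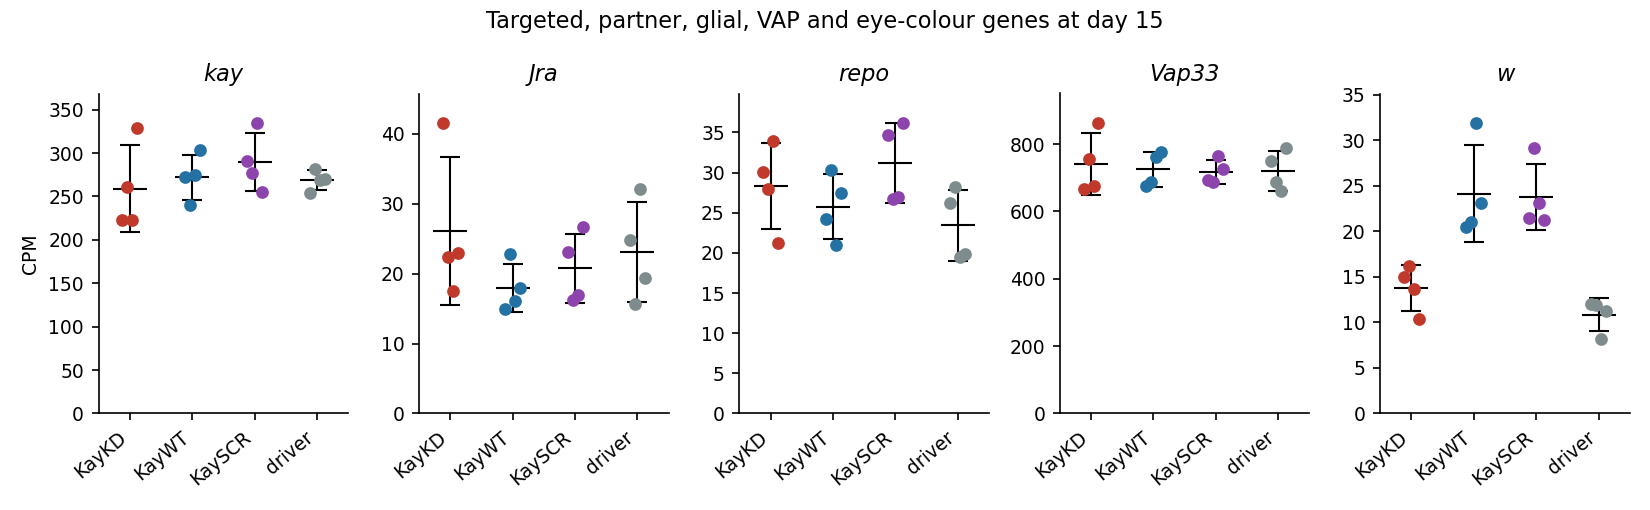
Level in CPM (vertical axis, from 0) of kay, Jra, repo, Vap33 and w in each library at day 15; points are libraries, horizontal bars means and error bars the SD of 4 libraries. The kay, Jra, repo and Vap33 points of KayKD and KayWT overlap, while the w points of KayKD (10.3 to 16.2 CPM) lie below those of KayWT (20.5 to 31.9 CPM).

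The eye colour gene w, which many fly transgenes carry as a marker, had non-overlapping levels. It was at 15, 16.2, 13.7 and 10.3 CPM in KayKD heads and at 20.5, 21, 31.9 and 23.1 CPM in KayWT heads. The log2 fold change was -0.83 ± 0.27, which did not pass the test (adjusted p = 0.111). KaySCR heads averaged 23.8 CPM, near KayWT, and driver heads 10.8 CPM, near KayKD.

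Across the 9796 genes tested, 226 (2.31%) differed between KayKD and KayWT heads at an adjusted p under 0.05 in edgeR's quasi-likelihood test. Of these, 125 (1.28% of genes tested) were higher in KayKD and 101 (1.03%) lower. Beyond a 2-fold change there were 52 higher and 38 lower genes, and the median log2 fold change over all genes tested was -0.02. The KayKD and KayWT libraries did not overlap for 207 of the 226 called genes, 112 higher and 95 lower. Over all genes tested they did not overlap for 799 (8.16%), of which 373 (3.81%) were higher and 426 (4.35%) lower in KayKD. Each of 8 further fits left out 1 library, and 88 of the 226 calls (48 higher and 40 lower) passed in all of them. The number of calls ranged from 132 without KayKD replicate 4 to 207 without KayKD replicate 2, and was 142 without KayWT replicate 3 and 149 without KayWT replicate 2. Genes are said below to hold throughout where they passed in all 8 of these fits. The term covers no other setting, and these fits still share the spread of the other kay arm libraries. A fit of only the 8 libraries compared had 141 calls, 126 of them shared, and 17 of the named genes lost the call there. Genes named for the smallest p per direction were required not to overlap between the groups, so their separation adds nothing. Counts for gene lists stand beside the 2.31% called over all genes. In a short list the absence of any call is near that share and is no result about the list.

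**Figure D2:**
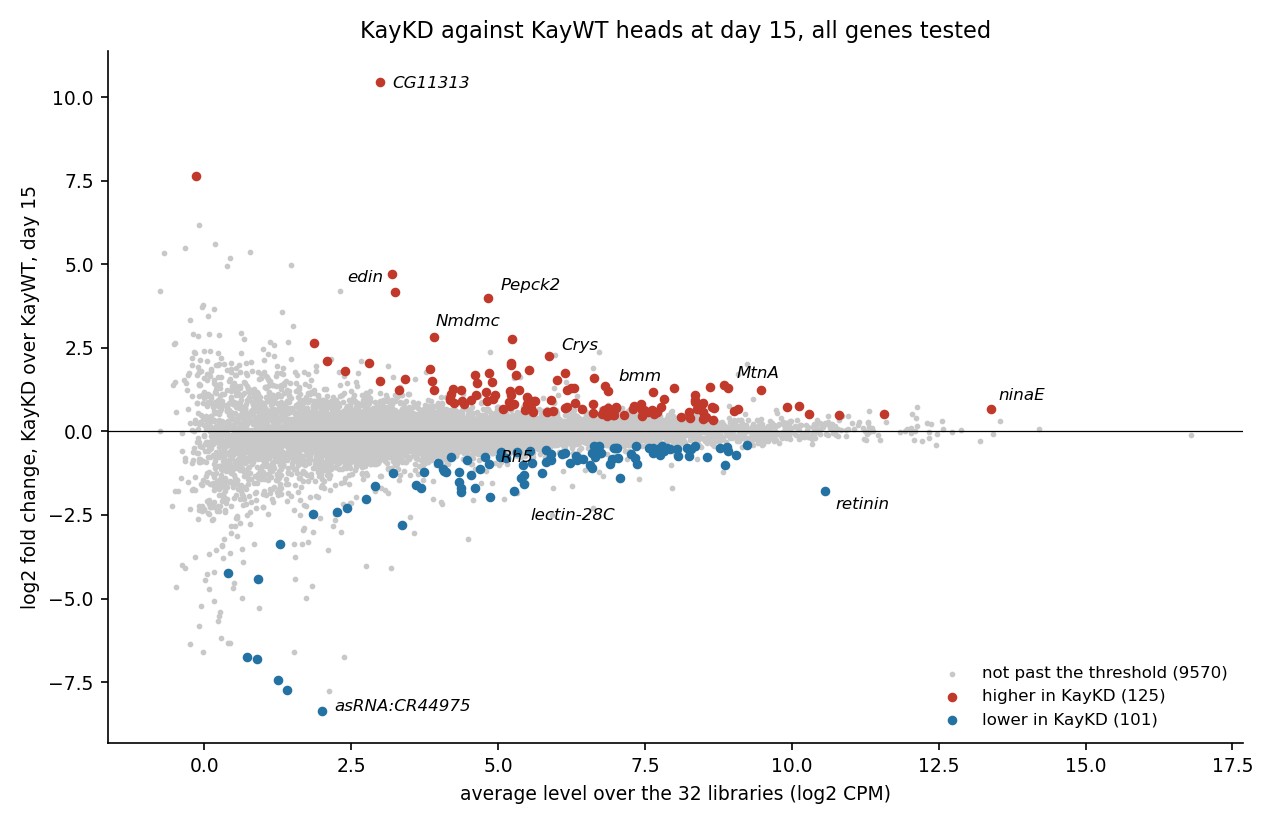
Log2 fold change of KayKD over KayWT at day 15 (vertical axis) against the average level of each gene in log2 CPM over the 32 libraries of the model (horizontal axis). The 125 genes higher and 101 lower in KayKD are coloured; CG11313 and asRNA:CR44975 stand at the extremes because all libraries of a group had no read of them.

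The smallest p of all belonged to Pepck2 (FBgn0034356, chromosome 2R, 18527430 to 18535749, plus strand), which encodes a phosphoenolpyruvate carboxykinase of the gluconeogenesis pathway. Its levels were 85.3, 119.1, 190.5 and 127.6 CPM in KayKD heads and 8.76, 6.57, 9.14 and 8.14 CPM in KayWT heads. Every KayKD library lay above every KayWT library, KaySCR heads averaged 11.7 CPM and driver heads 11.3 CPM. The log2 fold change was 4.00 ± 0.32 (adjusted p = 4.24e-10). Men, the malic enzyme that makes NADPH and pyruvate from malate, was at 513.9, 440.1, 519 and 366.3 CPM in KayKD heads and at 208.3, 234.2, 225.6 and 199 CPM in KayWT heads (log2 fold change 1.08 ± 0.13, adjusted p = 1.09e-06). Both held throughout. Of the 6 tested genes in a list of gluconeogenesis and malic enzyme genes, chosen after values were seen, these 2 were higher and none lower, and the list's median log2 fold change was -0.03, against -0.02 over all genes.

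Several genes of sugar and fat metabolism were also higher. Mal-B2, a maltase, was at 182.2, 128.5, 145.3 and 314.9 CPM in KayKD heads and at 56.3, 52, 67.4 and 56.1 CPM in KayWT heads (log2 fold change 1.74 ± 0.23, adjusted p = 7e-06). bmm, the triglyceride lipase brummer, which releases stored fat, was at 230, 178.2, 213.6 and 362.5 CPM in KayKD heads and at 106.3, 108.9, 118.7 and 93.6 CPM in KayWT heads (log2 fold change 1.20 ± 0.16, adjusted p = 1.4e-05). In both genes the groups were apart, with KayKD replicate 4 the highest library, and both calls held throughout. Desat1, the fatty acid desaturase, was at 1838, 1762, 1744 and 2067 CPM in KayKD heads and at 1202, 1517, 1213 and 1197 CPM in KayWT heads (log2 fold change 0.53 ± 0.10, adjusted p = 0.00181). mag, the lipase magro, was at 23.9, 4.95, 25.2 and 140.6 CPM in KayKD heads and at 4.41, 0.584, 1.47 and 0.214 CPM in KayWT heads (log2 fold change 4.70 ± 1.21, adjusted p = 0.028). The mag call rests on few libraries: the adjusted p was 0.295 without KayKD replicate 4 and 0.0901 to 0.0977 without KayWT replicate 2, 3 or 4. These 3 were the called genes of 19 tested in a lipid metabolism list, with 0 lower and a list median of -0.07.

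**Figure D3:**
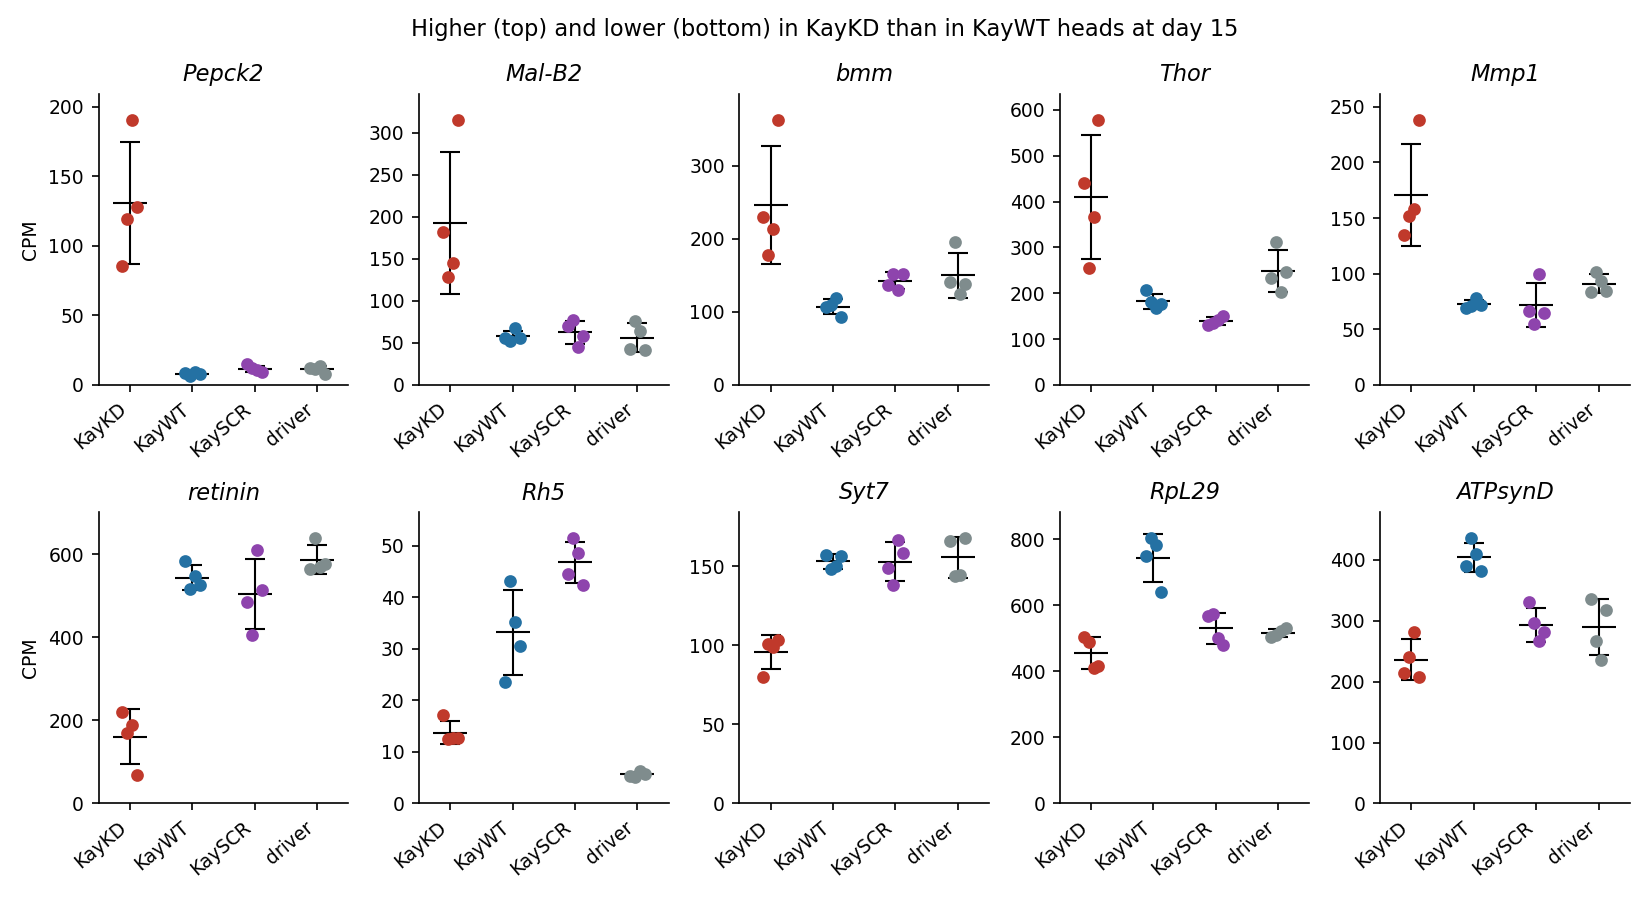
Level in CPM (vertical axes, from 0) of 5 genes higher (top row) and 5 lower (bottom row) in KayKD than in KayWT heads at day 15, with KaySCR and driver heads beside them; points are libraries, horizontal bars means and error bars the SD of 4 libraries. For Pepck2 the KayKD points sit at 85.3 CPM and above while KayWT points do not pass 9.14 CPM, and Rh5 is lowest in driver heads.

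A minority of the insulin and TOR signalling genes examined were higher in KayKD heads. Thor, the fly 4E-BP that restrains translation when insulin or TOR signalling is low, was at 440.9, 254.7, 366.6 and 578 CPM in KayKD heads and at 206.1, 181, 167.6 and 175.6 CPM in KayWT heads (log2 fold change 1.17 ± 0.19, adjusted p = 0.000319). InR, the insulin receptor, was at 375.4, 297.6, 288.5 and 653.9 CPM in KayKD heads and at 247.8, 170, 195.7 and 210.1 CPM in KayWT heads (log2 fold change 0.97 ± 0.19, adjusted p = 0.0025). Thor and InR lay above the KayWT range in every KayKD library and held throughout. In a list of 20 insulin and TOR signalling genes, chosen after values were seen, 5 were higher, none lower and 15 did not pass, with a median of 0.12 and a negative fold change in 9. The others were Pdk1, a kinase of the pathway (0.48 ± 0.13, adjusted p = 0.0353), REPTOR, a transcription factor that TOR complex 1 keeps inactive (0.41 ± 0.11, adjusted p = 0.0372), and ImpL2, a secreted protein that binds insulin-like peptides (0.63 ± 0.16, adjusted p = 0.0309). The Pdk1 adjusted p was 0.0619 to 0.171 without KayKD replicate 1 or 4 or any 1 KayWT library. The ImpL2 adjusted p was 0.0672 to 0.131 without KayKD replicate 1, 3 or 4 or KayWT replicate 1, 2 or 3. The REPTOR adjusted p was 0.0583 to 0.283 without KayKD replicate 1 or 4 or any 1 KayWT library. Leaving out 1 library left 2 to 5 called genes in the list, with 2 without KayKD replicate 1 or 4 or KayWT replicate 1, 2 or 3, and 3 without KayWT replicate 4. In a list of 18 autophagy genes, also chosen after values were seen, Atg8a (0.45 ± 0.11, adjusted p = 0.0221), which coats the autophagosome, and Atg18b (1.01 ± 0.26, adjusted p = 0.028) were higher and none lower. No autophagy gene passed without KayKD replicate 1, KayKD replicate 4 or KayWT replicate 2, and 1 passed without KayWT replicate 1, 3 or 4.

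Several purine synthesis and folate-linked genes were higher, and KayKD replicate 4 was the highest library for those given by library here. Prps, which makes the phosphoribosyl pyrophosphate that starts the pathway, was at 872.2, 837.8, 599.1 and 1779 CPM in KayKD heads and at 324.5, 325, 426.6 and 601.6 CPM in KayWT heads (log2 fold change 1.29 ± 0.22, adjusted p = 0.00048). The lowest KayKD library overlapped the highest KayWT library. CG11089, the enzyme of the last steps to inosine monophosphate, was at 213.6, 169.1, 156.5 and 328.4 CPM in KayKD heads and at 73, 91.2, 93.2 and 79.7 CPM in KayWT heads, with no overlap (log2 fold change 1.37 ± 0.24, adjusted p = 0.000552). Prps and CG11089 held throughout. Pfas, a middle step of the pathway, was at 47.8, 48.1, 47.3 and 192 CPM in KayKD heads and at 22.8, 42.5, 43.1 and 36.8 CPM in KayWT heads (log2 fold change 1.24 ± 0.35, adjusted p = 0.0497). Without KayKD replicate 4 the Pfas log2 fold change was 0.39 (adjusted p = 0.648), and without any 1 KayWT library its adjusted p was 0.0816 to 0.177. AdSL, the adenylosuccinate lyase, had a log2 fold change of 1.08 ± 0.29 (adjusted p = 0.0401), and passed in 2 of the 8 fits that left out a library, failing at 0.0534 to 0.238 without KayKD replicate 1, 3 or 4 or KayWT replicate 1, 2 or 3. Gart (0.99 ± 0.30, adjusted p = 0.0729) and Paics (0.77 ± 0.23, adjusted p = 0.0738), further steps of the same pathway, did not pass. Over the 9 purine synthesis genes, a list chosen after values were seen, 4 were higher and none lower, with a median of 0.99. Without KayKD replicate 4 the list had 2 higher genes and a median of 0.41, and 2 passed as well without KayWT replicate 1 or KayWT replicate 3.

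In serine and one-carbon metabolism, Nmdmc, a mitochondrial folate enzyme, was at 64.8, 51.7, 60.9 and 201.9 CPM in KayKD heads and at 9.21, 7.73, 22.5 and 17.1 CPM in KayWT heads (log2 fold change 2.77 ± 0.44, adjusted p = 0.000156). The groups did not overlap, and the call held throughout, with a log2 fold change of 2.05 at the lowest. Nmdmc overlaps the immune gene Rel on the same strand in the annotation, so reads of the one could be counted to the other. aay, the phosphoserine phosphatase that completes serine synthesis, was at 983.5, 912.3, 1212 and 2157 CPM in KayKD heads and at 552.2, 543.3, 591.6 and 524.1 CPM in KayWT heads (log2 fold change 1.25 ± 0.26, adjusted p = 0.00393). Its groups did not overlap, and the adjusted p was 0.0567 without KayKD replicate 4. Ahcy, which recycles S-adenosylhomocysteine, was higher by 0.81 ± 0.20 (adjusted p = 0.0221, and 0.0535 to 0.285 without KayKD replicate 4 or KayWT replicate 1 or 2). These were 3 of 8 tested genes of a list chosen after values were seen, with none lower and a median of 0.52. Without KayKD replicate 4, 1 passed and the median was 0.36.

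Metal, oxidant and drug response genes were higher in part. MtnA, a metallothionein that binds copper and other metals, was at 728.2, 911.6, 842.5 and 1102 CPM in KayKD heads and at 313.9, 276.7, 352.1 and 415.3 CPM in KayWT heads (log2 fold change 1.40 ± 0.15, adjusted p = 1.67e-07). Cyp6w1, a cytochrome P450, was at 88, 133.9, 123.6 and 115 CPM in KayKD heads and at 40.7, 32.8, 45.6 and 39.4 CPM in KayWT heads (log2 fold change 1.54 ± 0.19, adjusted p = 2.35e-06). For both genes every KayKD library exceeded every KayWT library and the call held throughout. The list of oxidative stress and detoxification genes had 5 higher and none lower of 32 tested, with a median of 0.15. The other 3 were the P450 genes Cyp6a8 (1.58 ± 0.41, adjusted p = 0.0302), Cyp12d1-p (2.11 ± 0.57, adjusted p = 0.0372) and Cyp4e3 (1.23 ± 0.34, adjusted p = 0.0413). With 1 library left out, Cyp6a8 passed only without KayKD replicate 2 or KayWT replicate 4, Cyp12d1-p only without KayKD replicate 1, and Cyp4e3 only without KayKD replicate 2 or 3 or KayWT replicate 2. The list then held 2 to 4 calls, with 2 without KayKD replicate 4 or KayWT replicate 1 or 3, and 3 without KayKD replicate 1 or 3 or KayWT replicate 2 or 4. Outside that list GstE11, a glutathione S-transferase, was lower, at 10.2, 9.41, 7.35 and 8.85 CPM in KayKD heads and 28.8, 27.7, 22.7 and 22.7 CPM in KayWT heads (log2 fold change -1.52 ± 0.25, adjusted p = 0.000273).

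JNK and AP-1 genes were examined as a list of pathway members and a list of known targets. None of the 23 pathway members passed in either direction, which for so short a list is near the 2.31% called over all genes tested. The list's median log2 fold change was 0.13, and 0 members passed in any of the 8 fits that left out a library. puc, the phosphatase that JNK signalling induces and that shuts it down, was at 161.8, 138.6, 132.4 and 156.1 CPM in KayKD heads and at 115.9, 148, 116.5 and 76.5 CPM in KayWT heads (log2 fold change 0.36 ± 0.16, adjusted p = 0.322). Atf3, another basic leucine zipper factor, was at 163.1, 188.9, 225.9 and 207.4 CPM in KayKD heads and at 147.3, 151.3, 151.8 and 152.7 CPM in KayWT heads, which did not overlap, yet the test did not pass (0.38 ± 0.15, adjusted p = 0.206). Of 17 target genes tested, out of 21 listed, 2 were higher and none lower, with a median of 0.28. Without KayKD replicate 4 there were 2 higher and 1 lower, with a median of 0.10. They were MtnA, given above, and Mmp1, a matrix metalloproteinase that JNK signalling induces in wounds. Mmp1 was at 134.5, 151.8, 158.3 and 238.1 CPM in KayKD heads and at 68.9, 70.8, 78.3 and 72 CPM in KayWT heads (log2 fold change 1.24 ± 0.20, adjusted p = 0.000153). No KayKD library came near the KayWT range, and the call held throughout. KaySCR heads averaged 71.5 CPM of Mmp1 and driver heads 90.8 CPM.

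Some antimicrobial peptide genes varied widely within the groups. Dro, which encodes the peptide Drosocin, was at 892.7, 497.6, 3638 and 1680 CPM in KayKD heads and at 15.3, 13.3, 1735 and 263.4 CPM in KayWT heads (log2 fold change 1.73 ± 0.93, adjusted p = 0.459). Mtk, or Metchnikowin, was at 846.3, 728.6, 3105 and 1155 CPM in KayKD heads and at 58.9, 77.3, 2221 and 620.3 CPM in KayWT heads (log2 fold change 0.97 ± 0.68, adjusted p = 0.616). The summed level of the 15 tested peptide genes was 3240, 2010, 10300 and 4740 CPM in KayKD heads and 364, 450, 5890 and 1670 CPM in KayWT heads, so 3 KayWT libraries lay below every KayKD library and the other, replicate 3, lay above 3 of them. None of the 15 was higher at the threshold and 1 was lower, with a median of 1.08. Without KayWT replicate 3 there were 5 higher and 1 lower, with a median of 2.66, without KayKD replicate 2 there were 1 higher and 1 lower, and without KayWT replicate 4 none passed. Def, the peptide Defensin, was the gene that was lower, at 25.3, 24.3, 22.1 and 23.9 CPM in KayKD heads and 31.9, 53.9, 71.6 and 96.2 CPM in KayWT heads (log2 fold change -1.40 ± 0.32, adjusted p = 0.0101). The adjusted p of Def was 0.0622 without KayWT replicate 4. edin, a gene induced by infection, was at 29.4, 4.79, 93.9 and 6.64 CPM in KayKD heads and at 0.519, 0.584, 3.34 and 3.21 CPM in KayWT heads (log2 fold change 4.16 ± 1.01, adjusted p = 0.0173). It overlaps Oatp74D on the same strand, and its adjusted p was 0.218 without KayKD replicate 3, 0.0768 without KayWT replicate 1 and 0.0741 without KayWT replicate 2.

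The pathways that switch these peptides on moved in few members. Of 19 tested genes of the Imd pathway, the branch set off by many bacteria, 1 was higher and none lower, with a median of 0.27. It was Rel, the NF-kappaB factor of the pathway, at 90.8, 41.5, 58.5 and 49.1 CPM in KayKD heads and 26.7, 38.8, 29.1 and 32.1 CPM in KayWT heads (0.90 ± 0.20, adjusted p = 0.00868). It overlaps Nmdmc on the same strand, and its adjusted p was 0.0741 without KayKD replicate 1. Of 17 Toll pathway genes, 1 was lower and none higher, with a median of -0.17. This was SPE, the protease that activates the Toll ligand (-0.63 ± 0.17, adjusted p = 0.0437), with overlapping groups and an adjusted p of 0.0589 to 0.221 without KayKD replicate 1, 3 or 4 or KayWT replicate 1, 2 or 3. The 14 bomanin and Daisho peptide genes had no call in either direction (median 0.19), nor had the 6 tested JAK-STAT genes (median 0.14) or the 4 tested Turandot stress genes (median -1.38). BomT1, with the smallest p of the bomanins, was at 19.6 to 27.9 CPM in KayKD heads and 8.61 to 17.5 CPM in KayWT heads (0.90 ± 0.30, adjusted p = 0.132). Socs36E, a feedback inhibitor of JAK-STAT signalling, was at 72.5 to 109.6 CPM in KayKD heads and 54.3 to 70.7 CPM in KayWT heads (0.45 ± 0.17, adjusted p = 0.180). TotA was at 24.6 to 68.7 CPM in KayKD heads and 50.8 to 250.4 CPM in KayWT heads, where replicate 3 was again the highest (-1.22 ± 0.43, adjusted p = 0.162). Without KayWT replicate 3 the Turandot median was 0.34 and 1 bomanin gene was higher.

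**Figure D4:**
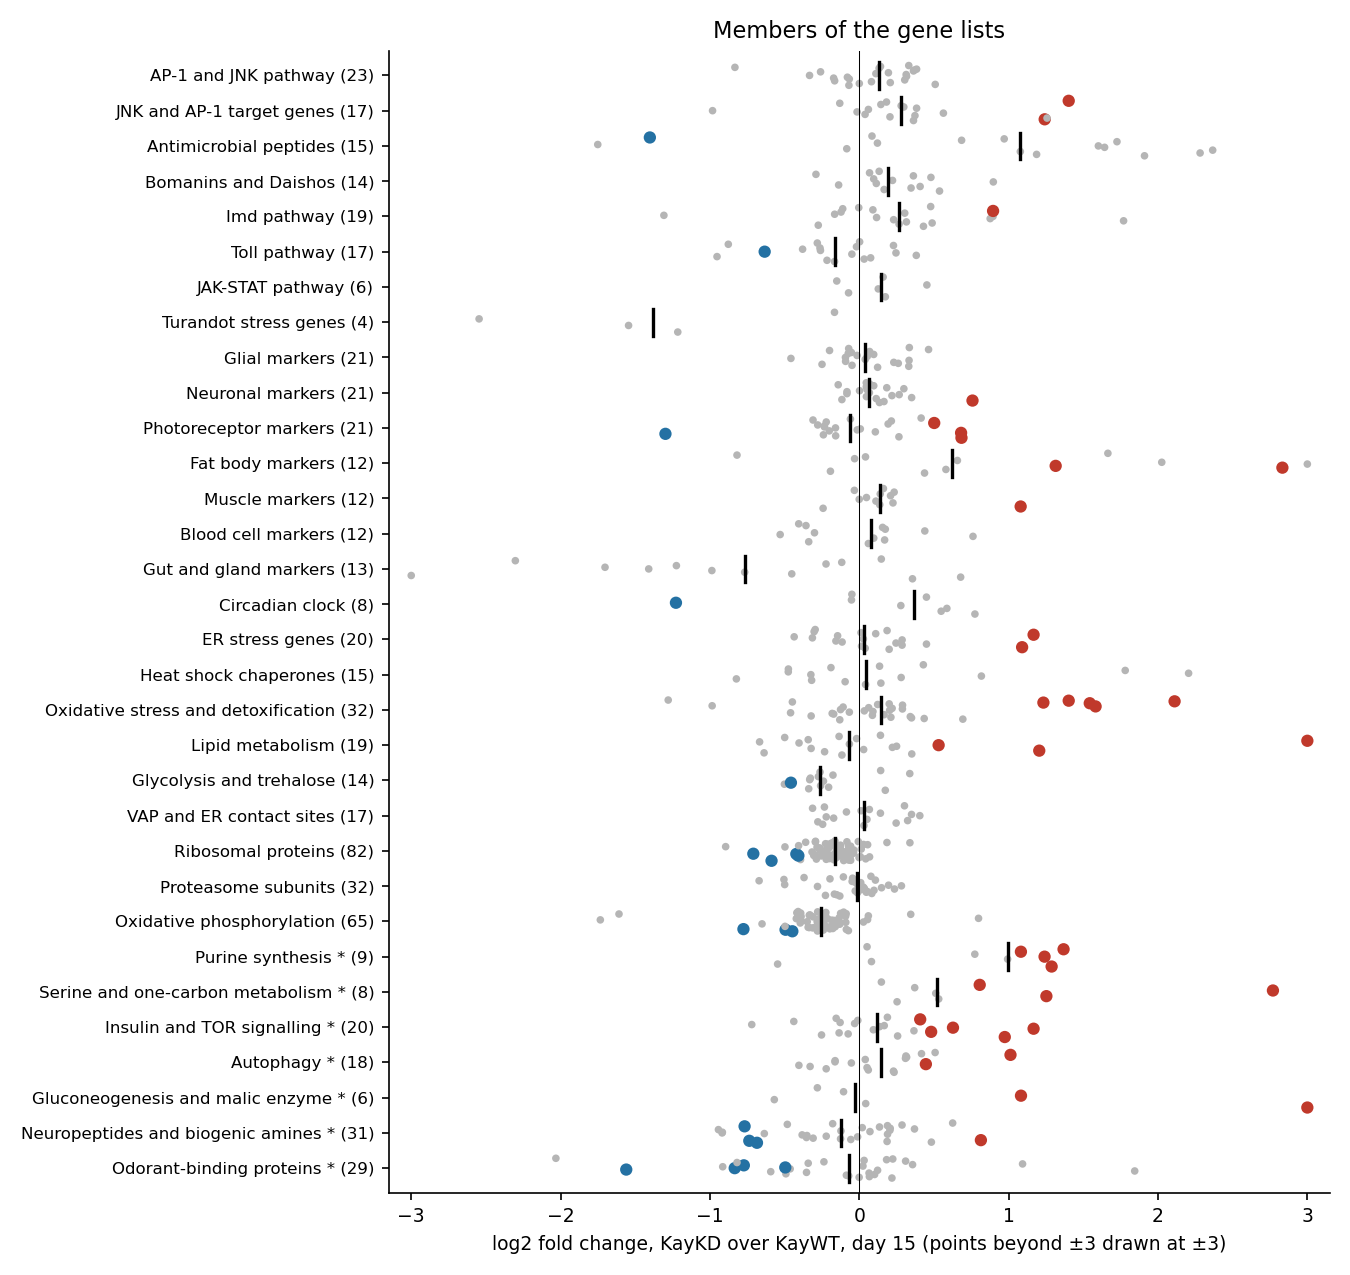
Log2 fold change of KayKD over KayWT at day 15 for every tested member of each gene list (number tested in brackets; an asterisk marks lists chosen after values were seen). Red points were higher and blue points lower at an adjusted p under 0.05, grey points did not pass, and black bars are list medians, such as 0.99 for purine synthesis and -0.25 for oxidative phosphorylation.

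Some genes of translation and respiration were lower in KayKD heads. RpL29, a protein of the large ribosomal subunit, was at 504.4, 488.5, 409 and 417.2 CPM in KayKD heads and at 748.2, 802.3, 781.7 and 640.2 CPM in KayWT heads (log2 fold change -0.71 ± 0.12, adjusted p = 0.000546). RpLP0, of the ribosomal stalk, was at 364.5, 395.4, 393.9 and 377.3 CPM in KayKD heads and at 526.5, 595.6, 660.5 and 518.7 CPM in KayWT heads (log2 fold change -0.59 ± 0.12, adjusted p = 0.00251). The groups did not overlap for these 2 genes and the calls held throughout. RpL29 averaged 530.1 CPM in KaySCR heads and 517 CPM in driver heads, both nearer to KayKD than to KayWT. RpLP0 averaged 589.7 CPM in KaySCR heads, nearer to KayWT, and 452.6 CPM in driver heads, nearer to KayKD. RpL9 (-0.42 ± 0.11, adjusted p = 0.0341) and RpS19a (-0.41 ± 0.11, adjusted p = 0.0341) had adjusted p of 0.194 and 0.241 without KayWT replicate 3. RpL9 passed only without KayWT replicate 2 or 4, and RpS19a only without KayKD replicate 2 or KayWT replicate 1 or 4. In all 4 of the 82 tested ribosomal protein genes were lower and none higher, with a median of -0.16. The count was 2 without KayKD replicate 1, 3 or 4 or KayWT replicate 3, and 5 without KayWT replicate 4. A negative fold change was seen in 74 of the 82 (90.2%), against 52.7% of all genes tested. The KayKD libraries held 63400 to 65700 CPM of all listed ribosomal protein genes and the KayWT libraries 67400 to 77800 CPM.

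ATPsynD, a subunit of the mitochondrial ATP synthase, was at 215, 240.3, 282.2 and 207.5 CPM in KayKD heads and at 389.7, 435.3, 410.5 and 382.3 CPM in KayWT heads (log2 fold change -0.78 ± 0.13, adjusted p = 0.000257). The call held throughout. KaySCR heads (293.5 CPM) and driver heads (289.3 CPM) averaged between the groups, both nearer to KayKD. SdhB of complex II (-0.49 ± 0.13, adjusted p = 0.0341) and ND-B17 of complex I (-0.45 ± 0.12, adjusted p = 0.0389) were the other called genes of the list, which was drawn up by gene symbol patterns. With 1 library left out, SdhB passed only without KayKD replicate 2 or KayWT replicate 1 or 4, and ND-B17 only without KayKD replicate 1 or 3 or KayWT replicate 1. Of 65 tested oxidative phosphorylation genes, 3 were lower and none higher, with a median of -0.25, and 60 (92.3%) had a negative fold change. Between 1 and 5 passed when a library was left out, with 1 without KayKD replicate 4 or KayWT replicate 3 and 5 without KayKD replicate 3. Respiratory chain genes with other symbols are outside the list, and cype and NP15.6 among them were also called, named here after their values were seen. cype, a cytochrome c oxidase subunit, was at 271, 369.6, 328.1 and 253.9 CPM in KayKD heads and at 423.5, 391.4, 487.4 and 415.5 CPM in KayWT heads (-0.49 ± 0.10, adjusted p = 0.005). NP15.6, a complex I subunit, was at 41, 47.6, 46.2 and 43.7 CPM in KayKD heads and at 73, 85.1, 83.6 and 56.1 CPM in KayWT heads (-0.74 ± 0.15, adjusted p = 0.00349). Neither overlapped between the groups, and both held throughout. Gapdh1, a glycolytic enzyme, was the 1 lower gene of 14 glycolysis and trehalose genes (-0.46 ± 0.11, adjusted p = 0.0142), none of which was higher, with a median of -0.26. Its adjusted p was 0.0784 without KayKD replicate 4 and 0.0835 without KayWT replicate 3, and the list had 2 lower genes without KayKD replicate 1. The 32 tested proteasome genes had no call in either direction and a median of -0.01. Rpn9, a subunit of its lid, was at 20.6 to 23.9 CPM in KayKD heads and 24.6 to 35.6 CPM in KayWT heads (-0.50 ± 0.22, adjusted p = 0.303).

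Among stress genes of the endoplasmic reticulum, 2 of 20 were higher and none lower, with a median of 0.03. They were Thor, given above, and crc, the fly ATF4 of the integrated stress response, at 91.5, 72.7, 60.2 and 54.9 CPM in KayKD heads and 47.4, 41, 24.6 and 15.9 CPM in KayWT heads (1.09 ± 0.29, adjusted p = 0.0341). The crc groups did not overlap, but the adjusted p was 0.0736 to 0.138 without KayKD replicate 1 or 2 or KayWT replicate 3 or 4. No gene of 15 tested heat shock chaperones passed in either direction (median 0.04). stv, a co-chaperone, was at 219.6 to 316.2 CPM in KayKD heads and 175.3 to 223.7 CPM in KayWT heads (0.43 ± 0.13, adjusted p = 0.0635), and its adjusted p was 0.0247 without KayKD replicate 2. Hsp83, the fly Hsp90, was at 166.5 to 296.2 CPM in KayKD heads and 323.8 to 371.8 CPM in KayWT heads (-0.47 ± 0.17, adjusted p = 0.154). The 17 VAP and contact site genes had no call in either direction, against 2.31% of all genes tested, and a median of 0.03. rdgB, a lipid transfer protein that VAP binds, was at 524.8 to 630.9 CPM in KayKD heads and 637.5 to 689.7 CPM in KayWT heads, without overlap (-0.22 ± 0.09, adjusted p = 0.224). Vps13, a bridge-like lipid carrier, was at 41.6, 86.9, 87.9 and 85.8 CPM in KayKD heads and at 67.5, 49.3, 61.7 and 52.1 CPM in KayWT heads (0.41 ± 0.17, adjusted p = 0.276), and passed without KayKD replicate 1 (adjusted p = 0.0269).

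Eye genes differed in both directions. retinin (FBgn0040074, chromosome 3L, 16331933 to 16332789, plus strand), which encodes a coat protein of the corneal surface, was at 219.1, 168.6, 188.7 and 68.4 CPM in KayKD heads and at 582.9, 516.6, 548.6 and 526.9 CPM in KayWT heads (log2 fold change -1.77 ± 0.19, adjusted p = 1.67e-07). Crys, a protein of the corneal lens, was higher, at 79.2, 79.8, 84 and 134.7 CPM in KayKD heads and 21.9, 24.8, 17.4 and 14.8 CPM in KayWT heads (log2 fold change 2.26 ± 0.20, adjusted p = 3.31e-09). Both were fully separate and held throughout. Rh5, the blue opsin of inner photoreceptors, was lower, at 17.1, 12.6, 12.6 and 12.7 CPM in KayKD heads and 23.6, 43.2, 35.3 and 30.6 CPM in KayWT heads (log2 fold change -1.30 ± 0.23, adjusted p = 0.000727). Driver heads held 5.2 to 6.34 CPM of Rh5, below both, and KaySCR heads 42.3 to 51.4 CPM. Rh6, the green opsin of the same cell position, was higher, at 677, 725.7, 716.4 and 1017 CPM in KayKD heads and 478, 475.5, 512.6 and 491.1 CPM in KayWT heads (log2 fold change 0.68 ± 0.13, adjusted p = 0.00121). rdgA, a diacylglycerol kinase of phototransduction, was higher by 0.50 ± 0.10 (adjusted p = 0.002). ninaE, the main opsin, was at 14440, 19260, 14450 and 30510 CPM in KayKD heads and at 9698, 10020, 10530 and 18710 CPM in KayWT heads (0.68 ± 0.18, adjusted p = 0.0333), with overlap. The adjusted p of ninaE was 0.309 without KayKD replicate 4, 0.0582 without KayKD replicate 2 and 0.133 to 0.14 without KayWT replicate 1, 2 or 3. Of 21 photoreceptor markers 3 were thus higher and 1 lower, and the median was -0.06, with 2 higher and 2 lower without KayKD replicate 4.

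Markers of the other cell types in a head were compared as lists. None of 21 tested glial markers passed in either direction, against 2.31% of all genes tested. Their median was 0.04, with 11 positive and 10 negative fold changes. The listed glial genes summed to 9060 to 11700 CPM in KayKD heads and 7740 to 8810 CPM in KayWT heads, without overlap. A large part of that sum came from vir-1, so it does not stand for the glial markers as a set. vir-1, with the smallest p among them, was at 2557 to 3422 CPM in KayKD heads and 1755 to 2513 CPM in KayWT heads (0.46 ± 0.14, adjusted p = 0.0848). Among 21 neuronal markers Syt1, the calcium sensor of synaptic vesicles, was the 1 higher gene and none was lower, with a median of 0.07. It stood at 1308, 1068, 1120 and 1200 CPM in KayKD heads and at 763.3, 663.1, 608.9 and 741.1 CPM in KayWT heads, apart in every library (log2 fold change 0.76 ± 0.16, adjusted p = 0.00424). Of 12 tested fat body markers 2 were higher and none lower, with a median of 0.62. These were the larval storage proteins Lsp1alpha, at 20.6 to 30 CPM in KayKD heads and 0.519 to 8.9 CPM in KayWT heads (2.83 ± 0.72, adjusted p = 0.0251), and Lsp1beta, at 280.1 to 457.7 CPM in KayKD heads and 68.8 to 267.8 CPM in KayWT heads (1.31 ± 0.33, adjusted p = 0.0221). Neither passed without KayWT replicate 1, 3 or 4, where the adjusted p was 0.0742 to 0.101, and Lsp1beta was at 0.0922 without KayKD replicate 3. Lsp1beta averaged 396.8 CPM in driver heads and 358 CPM in KaySCR heads, both above the KayKD mean of 334.6 CPM. Lsp1alpha averaged 11.5 CPM in driver heads and 48.5 CPM in KaySCR heads, against 25.1 CPM in KayKD heads. The listed fat body genes summed to 5500 to 8790 CPM in KayKD heads and 6250 to 8920 CPM in KayWT heads. Act88F, an actin of flight muscle, was the 1 higher gene of 12 muscle markers, with none lower and a median of 0.14. It had 13.4 to 29.4 CPM in KayKD heads and 6.43 to 12.2 CPM in KayWT heads (1.08 ± 0.25, adjusted p = 0.0133). The adjusted p of Act88F was 0.0767 without KayKD replicate 1, 0.063 without KayWT replicate 2 and 0.0532 without KayWT replicate 4. None of 12 tested blood cell markers passed (median 0.08), nor did any of 13 tested gut and gland markers (median -0.77). The negative gut and gland median rests on KayWT replicate 1: without that library it was 0.446. The summed level of the tested gut and gland genes was 265, 841, 163 and 636 CPM in KayKD heads and 2250, 1080, 141 and 64.9 CPM in KayWT heads. The blood cell genes summed to 4010 to 5780 CPM in KayKD heads and 5300 to 7910 CPM in KayWT heads. The part of any of these cell types or tissues in the results was not tested. Of 8 clock genes Clk was lower (-1.23 ± 0.32, adjusted p = 0.0333) and none higher, with a median of 0.36 and an adjusted p for Clk of 0.0584 to 0.163 without KayKD replicate 1, 3 or 4 or KayWT replicate 1 or 3.

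Signalling and odour genes outside these lists were looked at after values were seen. Of 31 tested neuropeptide and biogenic amine genes 1 was higher and 3 lower, with a median of -0.12. There were 2 higher and 2 lower without KayKD replicate 1 or 3 or KayWT replicate 4, and 1 of each without KayWT replicate 3. sNPF, a peptide that promotes feeding, was at 138.5, 155.4, 138 and 150.5 CPM in KayKD heads and at 80.1, 94.9, 83.7 and 72.8 CPM in KayWT heads (0.81 ± 0.16, adjusted p = 0.00279), and held throughout. CCHa2, a nutrient-dependent peptide that promotes insulin release, was at 174.7, 174.2, 157.6 and 134.4 CPM in KayKD heads and at 252.6, 272.3, 255.2 and 285.9 CPM in KayWT heads (-0.74 ± 0.17, adjusted p = 0.0127). Its adjusted p was 0.0697 without KayKD replicate 4. AstA, or allatostatin A, was lower by -0.69 ± 0.15 (adjusted p = 0.00888, and 0.0534 without KayWT replicate 3) and Tdc1, which makes tyramine, by -0.77 ± 0.20 (adjusted p = 0.0277, and 0.0536 to 0.123 without KayKD replicate 1 or 3 or KayWT replicate 1, 3 or 4). Syt7, a calcium sensor of slow vesicle release, was at 79.9, 100.6, 99.1 and 103.2 CPM in KayKD heads and at 157.3, 148.1, 150.3 and 156.4 CPM in KayWT heads (-0.67 ± 0.12, adjusted p = 0.00134). Arc1, a neuronal gene that rises with activity, was at 221.5 to 254.6 CPM in KayKD heads and 121.3 to 143.9 CPM in KayWT heads (0.83 ± 0.17, adjusted p = 0.00361). Driver heads held 327.4 to 406.9 CPM of Arc1, above both groups, and KaySCR heads averaged 155.4 CPM. Hr38, a nuclear receptor induced by neuronal activity, was at 42.4 to 68 CPM in KayKD heads and 15.9 to 23.9 CPM in KayWT heads (1.43 ± 0.33, adjusted p = 0.0103, and 0.0599 without KayKD replicate 4). Syt7, Arc1 and Hr38 had no overlap between the groups, and Syt7 and Arc1 held throughout. Of 29 tested odorant-binding protein genes, out of 51 listed, 4 were lower and none higher, with a median of -0.07. The count was 2 without KayKD replicate 1, 2 or 4, and 1 without KayWT replicate 2 or 3. Obp56a was at 15.9 to 28.7 CPM in KayKD heads and 42.9 to 82.3 CPM in KayWT heads (-1.56 ± 0.36, adjusted p = 0.0122, and 0.0697 without KayKD replicate 4 or 0.0611 without KayWT replicate 2). Obp56g (-0.50 ± 0.11, adjusted p = 0.00879), Obp59a (-0.77 ± 0.20, adjusted p = 0.026) and Obp56e (-0.83 ± 0.23, adjusted p = 0.0457) were the others. The Obp56g adjusted p was 0.0722 without KayWT replicate 3. With 1 library left out, Obp59a passed only without KayKD replicate 4 or KayWT replicate 4, and Obp56e only without KayKD replicate 3 or KayWT replicate 1.

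The remaining genes with the smallest p have little known function. CG16713 was at 57.3 to 96.5 CPM in KayKD heads and 15.7 to 20.6 CPM in KayWT heads (2.00 ± 0.22, adjusted p = 1.67e-07). CG31808 was at 81.2 to 90.4 CPM in KayKD heads and 28.6 to 43.1 CPM in KayWT heads (1.29 ± 0.14, adjusted p = 1.67e-07). The long noncoding RNA lncRNA:CR44922 was at 36 to 45.7 CPM in KayKD heads and 8.14 to 13.4 CPM in KayWT heads (1.74 ± 0.20, adjusted p = 5.03e-07). On the lower side, lectin-28C, a C-type lectin, was at 11.6 to 16.2 CPM in KayKD heads and 43.7 to 52.9 CPM in KayWT heads (-1.78 ± 0.22, adjusted p = 2.93e-06). CG8343 was at 233.6 to 341.9 CPM in KayKD heads and 425.9 to 726.9 CPM in KayWT heads (adjusted p = 2.7e-05). CG3088 (-1.41 ± 0.18, adjusted p = 2.75e-06), CG6040 (-1.25 ± 0.19, adjusted p = 0.000112), CG34456 (-1.70 ± 0.28, adjusted p = 0.000273) and CG9394 (-0.92 ± 0.16, adjusted p = 0.000516) were lower as well. Separation between the groups was a condition for naming these genes, and all of them held throughout. CG9394 overlaps ktub on the same strand.

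For 7 called genes all 4 libraries of a group had no read, so their fitted fold changes are not bounds. CG11313 (FBgn0039798, chromosome 3R, 30729837 to 30731165, minus strand) had 24, 160, 113 and 236 reads in KayKD heads and 0 in each KayWT library, with 16.4 to 39.6 CPM in KayKD heads. Taking 3 reads over the group as the floor, CG11313 was at least 332-fold higher in KayKD heads (adjusted p = 7.1e-09). CG3117, at 2.15 to 5.95 CPM in KayKD heads, was at least 44.8-fold higher by the same measure (adjusted p = 0.0174, and 0.0597 to 0.0718 without KayWT replicate 1, 2 or 3). The antisense transcript asRNA:CR44975 had 0 reads in each KayKD library and 58, 38, 51 and 54 in KayWT heads, so that it was at least 35.9-fold lower (adjusted p = 2.34e-05). It overlaps grp on the other strand, and whether counting used strand is not given in the sources used here. The other 4, all without a read in KayKD heads, were asRNA:CR45822, aurB, asRNA:CR45835 and CR43105, named here because of this pattern. Driver heads averaged 0.0351 CPM of CG11313 and KaySCR heads 0, while asRNA:CR44975 was at 0 in driver heads and averaged 6.86 CPM in KaySCR heads.

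The levels of the called genes in the other 2 arms were set beside the contrast as a description. The KaySCR mean was nearer to the KayWT mean than to the KayKD mean for 201 of the 226 called genes (88.9%), against 64.5% of all genes tested. The driver mean was nearer to KayWT for 119 (52.7%), against 54.7% of all genes, and nearer to KayKD for 107. In 88 called genes the driver mean was nearer to KayKD and the KaySCR mean nearer to KayWT. This joint count was not made over all genes tested, so 88 cannot be set against a background share. The same pattern was seen for w, which did not pass the test. Among called genes it held for CG31808, with 84.6 CPM in driver heads, and CG34456, with 11 CPM in driver heads and 40.1 CPM in KaySCR heads. Pepck2, Mal-B2, bmm and Mmp1 stood higher in every KayKD library than the means of all 3 other arms. By library bmm overlapped the driver arm, with 195.7 CPM in driver replicate 2 and 178.2 CPM in KayKD replicate 2. Mal-B2 averaged 62.5 CPM in KaySCR heads and 56 CPM in driver heads, and bmm 142.6 CPM in KaySCR heads and 149.9 CPM in driver heads. The labels do not say how far the arms share a line background. Line background and the change in kay therefore cannot be told apart here, and their parts in these levels were not tested.

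The same contrast at day 5, from separate libraries, had 317 calls (3.24% of genes tested), of which 172 (1.76%) were higher and 145 (1.48%) lower in KayKD heads. Of the 226 genes called at day 15, 199 (88.1%) had the same sign at day 5, against 60.3% of all genes tested. At both ages 76 were called in the same direction, which is 33.6% of the day 15 calls and 24% of the day 5 calls, and 0 were called in opposite directions. Of the 15 tested antimicrobial peptide genes, 5 were higher and 1 lower at day 5, with a median of 2.44. Of the 14 bomanin and Daisho genes, 3 were higher and 0 lower at day 5, with a median of 0.04. BomT1 was among them (1.37 ± 0.31, adjusted p = 0.00849). The difference between the ages passed for 0 genes of either list. Pepck2 was already higher at day 5, at 44.2 CPM or above in 3 of 4 KayKD libraries and 26.2 CPM in the other, against 4.01 to 10.4 CPM in KayWT heads (log2 fold change 2.69 ± 0.31, adjusted p = 1.07e-06). Its change in fold with age did not pass the test (1.31 ± 0.42, adjusted p = 0.364). Mmp1, Thor, Prps, CG11089 and aay had day 5 log2 fold changes of 0.14, 0.18, 0.13, 0.02 and -0.14, with adjusted p of 0.691 or more, but the difference between the ages did not pass for them either (adjusted p = 0.133 to 0.218).

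**Figure D5:**
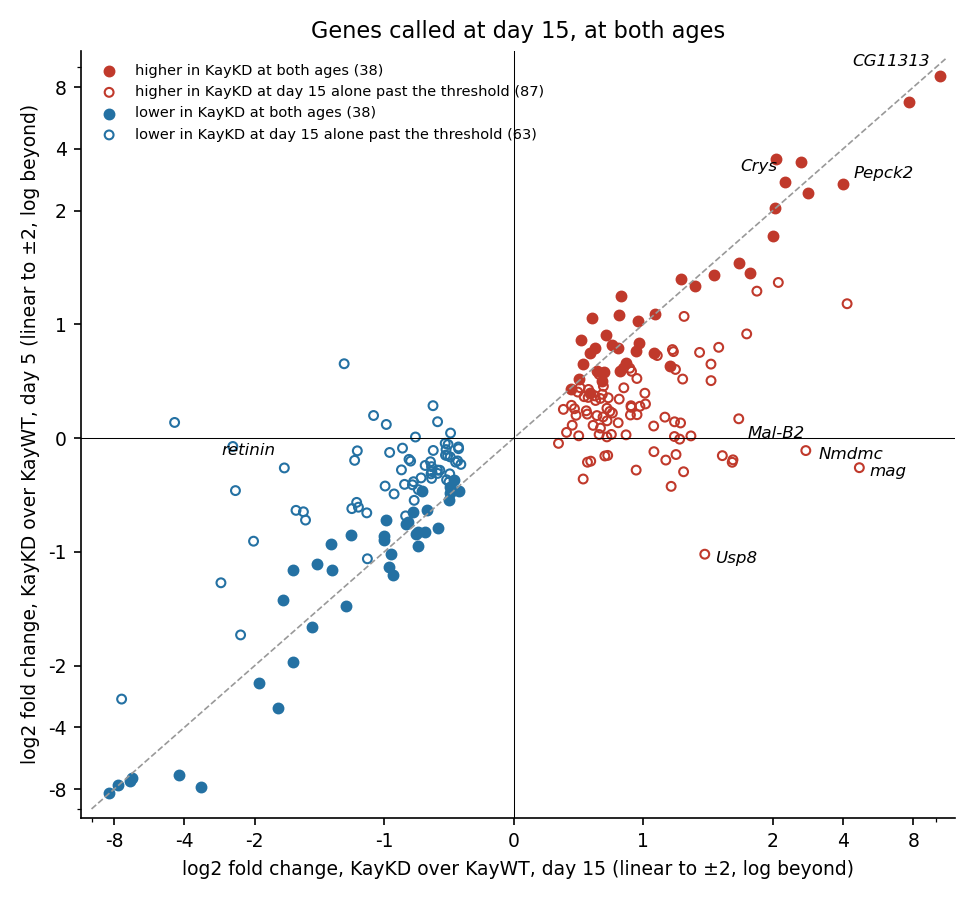
Log2 fold change of KayKD over KayWT at day 5 (vertical axis) against day 15 (horizontal axis) for the 226 genes called at day 15; both axes are linear to 2 and logarithmic beyond, and the dashed line marks equal values. Filled points, 38 higher and 38 lower, were called in the same direction at both ages, while retinin, Mal-B2, Nmdmc and Usp8 lie away from the line.

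A test of the difference between the ages called 8 genes (0.0817% of genes tested), 4 of them with a fold change that was higher at day 15 (0.0408%) and 4 with one that was lower (0.0408%). retinin, whose day 15 log2 fold change was -1.77, was at 2319, 2299, 2292 and 1858 CPM in KayKD heads and at 2758, 2784, 2395 and 2577 CPM in KayWT heads at day 5. The day 15 fold change differed from that at day 5 by -1.51 ± 0.26 on the log2 scale (adjusted p = 0.00949). Achl, a clock-controlled gene known to affect immune genes, was at 189.9, 165.5, 222.6 and 196.8 CPM in KayKD heads and at 52.4, 20.6, 44.8 and 31 CPM in KayWT heads at day 5, and at 89.4 to 167.4 CPM in KayKD heads and 157.5 to 270.1 CPM in KayWT heads at day 15 (difference -3.06 ± 0.52, adjusted p = 0.00949). Its groups were apart at day 5 and overlapped at day 15. Day 15 driver heads held 18.4 to 20.8 CPM of Achl, below every KayKD and KayWT library of that age. KaySCR heads spread from 29.1 to 357.7 CPM. Mal-B2 was at 54.3 to 63.5 CPM in KayKD heads and 46.5 to 56.2 CPM in KayWT heads at day 5 (difference 1.57 ± 0.32, adjusted p = 0.041), and Nmdmc at 25 to 40.7 CPM in KayKD heads and 16.9 to 56.9 CPM in KayWT heads (difference 2.88 ± 0.60, adjusted p = 0.0447). Usp8, a deubiquitinase, was higher in KayKD heads at day 15 (71, 33.9, 29.8 and 31.9 CPM, against 15.6, 19.3, 12 and 11.1 CPM in KayWT heads, adjusted p = 0.00962) and not called at day 5 (difference 2.49 ± 0.47, adjusted p = 0.0274). CG6723 (1.88 ± 0.37), CG7220 (-0.73 ± 0.15) and CG34134 (-1.96 ± 0.41) were the others, with adjusted p of 0.041, 0.041 and 0.0472. When each of the 16 libraries of the 2 ages was left out in turn, retinin and Achl passed every time and the count ranged from 2 to 12. It was 2 to 4 without KayKD replicate 4 or KayWT replicate 1, 2 or 4 of day 15, any 1 KayKD library of day 5, or KayWT replicate 1, 2 or 3 of day 5. Usp8 lost the call, at an adjusted p of 0.0506 to 0.0768, without KayWT replicate 1 or 4 of day 15, KayKD replicate 2 or 3 of day 5 or KayWT replicate 1 of day 5. The other 5 each lost it in over 10 of these 16 fits, with adjusted p up to 0.145 for CG6723, CG7220 and Mal-B2, 0.2 for Nmdmc and 0.176 for CG34134.

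Called genes lay on 2L, 2R, 3L, 3R, 4 and X, but some were close neighbours and need not be independent. Cyp6w1 (from 6173684, higher) and CG8343 (from 6179726, lower) lay together on 2R. So did GstE11 (from 18503608, lower) and Pepck2 (from 18527430, higher). ATPsynD (from 19095000) and CG6040 (from 19096961), both lower, were neighbours on 3R. On 2L asRNA:CR44975 (from 16697344, lower) lay near CG31808 (from 16704286, higher). On 3L asRNA:CR45822 (from 7355717) lay near asRNA:CR45835 (from 7361639), both lower and without a read in KayKD heads. These pairs are examples, and neighbouring calls were not counted. The part of position or line background in these calls was not tested. The share called was 3.39% on 2L, 2.36% on 2R, 2.33% on 3R, 2.13% on 3L, 1.43% on X and 1.08% of the 93 tested genes of chromosome 4, where 1 gene was called.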

How the data were processed

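RNA was extracted from fly heads with phenol and chloroform and made into 3′ mRNA libraries with a forward kit and unique dual indices, per the labels' protocols. The deposited male table holds whole-number counts per gene as the authors made them; build dm6 is named in the submitters' processing notes, while the sources used here do not give the aligner, counter, annotation or use of strand. Rows that are not genes, 0.17% to 0.244% of reads, stayed out. Labels gave groups and replicate numbers but not whether replicates came from separate vials; the p-values therefore reflect only how far these libraries vary, and that variation may be technical. No pair of replicates agreed within sampling noise.

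In R 4.3.3, edgeR 4.0.16 fitted all 32 male libraries of the kay arms (8 groups, 24 residual degrees of freedom; TMM, filterByExpr, quasi-likelihood test) to 9796 genes, with Benjamini-Hochberg adjustment over all of them. SEs are the log2 fold change over the square root of F. CPM use TMM-scaled library sizes. The procedure was tested on simulated data. Alternatives were RLE size factors, no filter, a filter of 5 CPM in 4 libraries, DESeq2 1.42.0, only the libraries compared, the replicate block and each library left out.

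Members and lists were chosen with earlier results of these data known. Named genes were kay, Jra, Vap33, repo and w, the 10 smallest p per direction among called genes of at least 5 CPM with non-overlapping groups, up to 4 called members per list (or, where none passed, values of up to 2), and up to 5 genes that differed between ages. A further 21 genes, 7 of the 32 lists, 3 further genes with an age difference and other members named beside lists were chosen after values were seen. Promoter motifs and the female tables were not analysed here.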

Additional observations from a re-analysis of the deposited data

Results flagged for a closer look

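Among 192 groups of 4 libraries examined for the named genes, 18 held a library whose gap to the others exceeded Dixon's 95% critical value. Chance flags about 1 in 20 groups. In KayKD heads, replicate 4 was the highest library for Crys (134.7 CPM), Nmdmc (201.9 CPM), Rh6 (1017 CPM), mag (140.6 CPM), Cyp12d1-p (11.59 CPM), Pfas (192 CPM), Socs36E (109.6 CPM) and Jon25Biii (0.316 CPM, the other 3 at 0). Replicate 1, the shallowest, was the highest KayKD library for Rh5 (17.06 CPM) and Usp8 (70.98 CPM) and the lowest for Vps13 (41.63 CPM). Replicate 2 was the lowest KayKD library for ImpL2 (132 CPM), and replicate 3 the highest for CG34134 (59.88 CPM). In KayWT heads, the highest library that stood apart was replicate 1 for Jon25Biii (9.471 CPM), a gut protease, replicate 2 for Desat1 (1517 CPM), replicate 3 for RpS19a (877.8 CPM) and TotM (68.7 CPM), and replicate 4 for ninaE (18710 CPM). The KayKD over KayWT fold change differed between day 15 and day 5, by an interaction term in edgeR, for 8 genes. On the log2 scale the day 15 value minus the day 5 value was -3.06 for Achl, -1.51 for retinin, 2.49 for Usp8, 1.88 for CG6723, -0.73 for CG7220, 1.57 for Mal-B2, 2.88 for Nmdmc and -1.96 for CG34134. What set these libraries and ages apart was not tested.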

How the results depend on the processing

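At day 15 the 226 calls became 344 with DESeq2 (223 of them shared) and 141 in a fit of only the libraries compared (126 shared), and 132 to 207 with 1 library left out. RLE size factors gave 234, no filter 201 and the stricter filter 242. Replicate numbers did not pair the samples: deviations of same-numbered day 15 libraries had correlations of -0.034, 0.144, 0.102 and -0.119. With the replicate block the count was 230 in the libraries compared and 202 in all 32. At day 5 the 317 calls became 547 with DESeq2, 157 with the replicate block in only the libraries compared, and 153 to 274 with 1 library left out. The 8 calls of the difference between ages became 14 without a filter, 32 with DESeq2, 2 in only the libraries compared, 3 with the replicate block in those libraries, 4 with the replicate block in all 32, and 2 to 12 with 1 library left out. With the replicate block in only the libraries compared, 8 antimicrobial peptide genes were higher, against 0 in those libraries without the block and 0 with the block in all 32. Of 1437 recomputed fold changes of the 96 named genes, 1276 kept direction and side of the threshold, 152 lost and 5 gained the call, and 4 turned sign, none of them called. With 1 library left out TotM ranged from -3.69 to 1.42 (1.42 without KayWT replicate 3), Jon25Biii from -7.16 to 0.53 (without KayWT replicate 1), and Vap33 from -0.058 (without KayKD replicate 4; -0.0011 without KayWT replicate 1) to 0.077. The cause of these shifts was not tested. Depth limits genes near the limit of a count of 0, up to 2.08 CPM in KayKD replicate 1.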
